A study of Mus musculus with 107 samples.

Results

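Blood vessels are steered by guidance genes first known from axons, and 10 of them are described here in mouse tumors given lenvatinib: the plexin receptor Plxnd1, the secreted class 3 semaphorins Sema3c, Sema3e, Sema3f and Sema3g, the ephrins Efnb2 and Efna1, the Eph receptor Ephb4, the endothelial receptor Robo4 and the Slit ligand Slit2. They were taken by gene symbol, as a list drawn up with earlier results of these data known, and all 10 had a row among the 50686 genes of the table. Semaphorin 3E binds plexin D1 directly and repels growing endothelial sprouts, whereas most other class 3 semaphorins bind neuropilins, which partner with plexins. Ephrin-B2 marks arterial and EphB4 marks venous endothelium, and contact between cells carrying them signals into both cells. Robo4 is a receptor found mainly on endothelial cells, where it stabilizes vessels, and Slit proteins are ligands of Robo receptors such as Robo1.

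The tumors were grown from 12 mouse cancer cell lines injected under the skin of mice of the matching strain, 7 weeks old at implantation, and bulk RNA was sequenced after removal of ribosomal RNA. The hosts were BALB/cAnNCrlCrlj for BNL 1ME A.7R.1 (liver), RAG and Renca (kidney), 4T1 and EMT6 (breast) and CT26.WT (colon). They were C57BL/6NCrl for MC38 (colon) and B16-F10 (melanoma), C57BL/6JCrl for LL/2 (lung), C3H/HeNCrl for MBT2 (bladder), DBA/2NCrl for KLN205 (lung) and C57L/J for Hepa 1-6 (liver). Each model had 3 groups, all entered at a tumor volume of about 100 mm3: treatment-naïve tumors taken at that size, nontreated (NT) tumors taken on day 8, and LEN tumors taken on day 8 after 7 days of oral lenvatinib, at a daily dose of 10 mg/kg. Lenvatinib is a kinase inhibitor of the receptors of VEGF and FGF, among others. There were 35 treatment-naïve, 36 NT and 36 LEN tumors, 3 per model and group except for 2 treatment-naïve MC38 tumors. No mouse gave both an NT and a LEN tumor, each model is a single implanted line, the RAG line had been adapted to growth in mice, and the hosts were male for the liver lines and female otherwise.

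Levels are given in TPM, the abundance of transcripts scaled for gene length and to one total in every tumor, so that levels of different genes may be compared but sequencing depth is unknown. Protein-coding genes held 37.1% to 60.6% of the TPM in treatment-naïve tumors, 40.5% to 62.4% in NT tumors and 27.5% to 66.6% in LEN tumors, with the lowest value in a 4T1 LEN tumor. All 8 endothelial markers (Cdh5, Kdr, Pecam1, Tie1, Emcn, Esam, Erg and Egfl7) were detected in every group, and their summed level ranged from 53.6 to 243.8 TPM in treatment-naïve, 54.0 to 195.6 TPM in NT and 21.9 to 102.6 TPM in LEN tumors. The 6 epithelial markers summed to at most 21.4 TPM in the MC38, CT26.WT and MBT2 carcinoma models, and the 5 melanocyte markers summed to between 8065 and 9414 TPM in B16-F10. The epithelial sum in BNL 1ME A.7R.1 was 166 to 209 TPM in treatment-naïve, 18.3 to 46.8 TPM in NT and 1069 to 1256 TPM in LEN tumors, the widest gap between NT and LEN of any model. Those BNL 1ME A.7R.1 values stand beside the results for Sema3e and Efnb2, which had their highest differences between LEN and NT in that model.

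The stretches of 250 bases before the RefSeq start site of Robo4, Sema3e and Efnb2 are shown because these genes had the lowest mean difference between LEN and NT, the highest mean difference, and a difference of opposite sign in different models. They lie in build GRCm38.p6 at chr9:37401722-37401971 on the plus strand, of which the first 175 bases are printed, chr5:14025026-14025275 on the plus strand and chr8:8661243-8661492 on the minus strand, each printed 5′ to 3′ along the gene. Capitals mark the letters GGAA, or TTCC on the other strand, which form the core bound by ETS factors. The last 75 bases of the Robo4 window lie in an exon of a longer GENCODE M21 transcript and are not printed.
Robo4: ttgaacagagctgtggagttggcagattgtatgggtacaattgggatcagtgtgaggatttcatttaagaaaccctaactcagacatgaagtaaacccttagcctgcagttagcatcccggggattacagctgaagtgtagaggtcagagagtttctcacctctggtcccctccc
Sema3e: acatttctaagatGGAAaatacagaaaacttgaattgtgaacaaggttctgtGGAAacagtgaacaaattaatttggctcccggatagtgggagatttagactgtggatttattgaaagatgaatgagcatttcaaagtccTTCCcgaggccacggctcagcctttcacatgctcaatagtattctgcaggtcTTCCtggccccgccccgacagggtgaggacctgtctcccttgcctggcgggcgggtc
Efnb2: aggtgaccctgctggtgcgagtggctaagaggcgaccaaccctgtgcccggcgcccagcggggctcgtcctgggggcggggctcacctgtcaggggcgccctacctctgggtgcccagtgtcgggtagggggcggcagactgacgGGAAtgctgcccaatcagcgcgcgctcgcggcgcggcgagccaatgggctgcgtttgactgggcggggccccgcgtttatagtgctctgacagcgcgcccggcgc
The window of Sema3e had 4 such cores, that of Efnb2 1 and that of Robo4 3, all in its unprinted bases, and 93.4% of all 32851 RefSeq windows of this length held at least 1, with a median of 3. The GC box GGGCGG, searched on both strands, was found 0 times for Robo4, 2 times for Sema3e and 3 times for Efnb2, against 32.7% of all windows with at least 1. The TATA box letters TATAAA occurred 1 time for Efnb2 and in 12.4% of all windows, and the letters ACGTG, the core of the hypoxia response element, occurred in none of these 3 windows and in 16.6% of all windows. The window of Robo4 was 49.6% G and C with 2 CG dinucleotides, that of Sema3e 48% with 7, and that of Efnb2 72% with 27. RefSeq windows were matched for 9 of the 10 genes. These are letter matches only.

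Before treatment, the 10 genes differed in level between the 12 models. Each differed by the limma F test over the 35 treatment-naïve tumors, as did 93.6% of all 17542 genes tested. The genes did not share one order of models: the highest mean was in B16-F10 for Plxnd1, KLN205 for Sema3c, LL/2 for Sema3e, 4T1 for Sema3f, MBT2 for Efnb2, Renca for Robo4 and CT26.WT for Slit2, and in Hepa 1-6 for Sema3g, Ephb4 and Efna1.

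Among the ligands, Sema3e, the ligand of plexin D1, had the widest relative range, but its lowest mean was 0.0067 TPM, in MBT2. On the log2(TPM + 1) scale the SD of its model means was 1.14. That was below the SD of Sema3c (1.81), Slit2 (1.53), Efnb2 (1.28) and Sema3f (1.22). Sema3e averaged 7.17 ± 1.46 TPM (SD, n = 3) in LL/2, 5.23 ± 1.33 TPM in 4T1 and 4.33 ± 0.0819 TPM in KLN205. The tumors of LL/2 overlapped those of 4T1, and those of 4T1 overlapped KLN205. Sema3e was at 0.24 TPM or less in every treatment-naïve tumor of CT26.WT, RAG, MC38, Renca and MBT2, and it was listed at 0 in 11 of all tumors. Sema3c, a semaphorin with both attractive and repulsive roles, averaged 59.2 ± 1.67 TPM in KLN205 and 46.8 ± 1.71 TPM in EMT6, with no overlap between the tumors of these models or with the next, RAG at 13.0 ± 4.30 TPM. Its lowest mean was 0.257 ± 0.060 TPM in CT26.WT.

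Sema3f, a ligand of neuropilin 2, was highest in 4T1 at 66.4 ± 5.60 TPM and lowest in MC38 at 6.90 ± 0.0849 TPM (n = 2). The 4T1 tumors overlapped those of EMT6, at 56.2 ± 5.42 TPM, and the 6 models from RAG down to MC38 each overlapped their neighbor in the order. Sema3g, a semaphorin of arterial endothelium, was the lowest of the 10 genes apart from Sema3e in its median level, with model means from 0.283 ± 0.0777 TPM in LL/2 to 3.09 ± 0.679 TPM in Hepa 1-6. For Sema3g, 10 of the 11 pairs of neighboring models overlapped. Slit2 ranged from 3.64 ± 1.41 TPM in LL/2 to 166 ± 6.45 TPM in CT26.WT, where the tumors were at 169, 171 and 159 TPM and stood apart from every other model. The next model, MBT2, had 39.7 ± 2.65 TPM of Slit2.

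Of the membrane-bound ligands, Efnb2 (ephrin-B2) averaged from 2.52 ± 0.537 TPM in MC38 to 35.3 ± 2.86 TPM in MBT2. Its models included a set of 6 at 19.8 TPM or more (MBT2, KLN205, CT26.WT, EMT6, BNL 1ME A.7R.1 and 4T1), in which neighbors overlapped, and a set of 3 at 2.97 TPM or less (Hepa 1-6, B16-F10 and MC38). Between them lay LL/2 at 9.47 TPM, RAG at 7.11 TPM and Renca at 6.89 TPM. Efna1 (ephrin-A1), which is induced by inflammatory signals in endothelium, ranged from 2.59 ± 0.511 TPM in B16-F10 to 35.4 ± 5.60 TPM in Hepa 1-6. The Hepa 1-6 tumors, at 40.5, 36.3 and 29.4 TPM, did not overlap those of 4T1, the next model.

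Of the receptors, Ephb4 averaged 64.3 ± 8.00 TPM in Hepa 1-6, without overlap with the next model, 4T1, at 34.8 ± 4.60 TPM. It was lowest in MBT2 at 2.33 ± 0.494 TPM, the model in which its ligand Efnb2 was highest. Plxnd1 had the highest median level of the 10 genes and a narrow relative range, from 21.2 ± 9.47 TPM in KLN205 to 98.6 ± 2.90 TPM in B16-F10. B16-F10, Renca (94.4 ± 13.0 TPM) and BNL 1ME A.7R.1 (73.0 ± 1.52 TPM) stood above the other 9 models, which overlapped one another in order. Robo4 had the narrowest relative range, from 1.77 ± 0.583 TPM in RAG to 7.75 ± 1.22 TPM in Renca. The Renca tumors were at 6.55, 8.98 and 7.72 TPM and overlapped those of EMT6, which were at 4.97, 5.42 and 6.80 TPM.

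**Figure D1:**
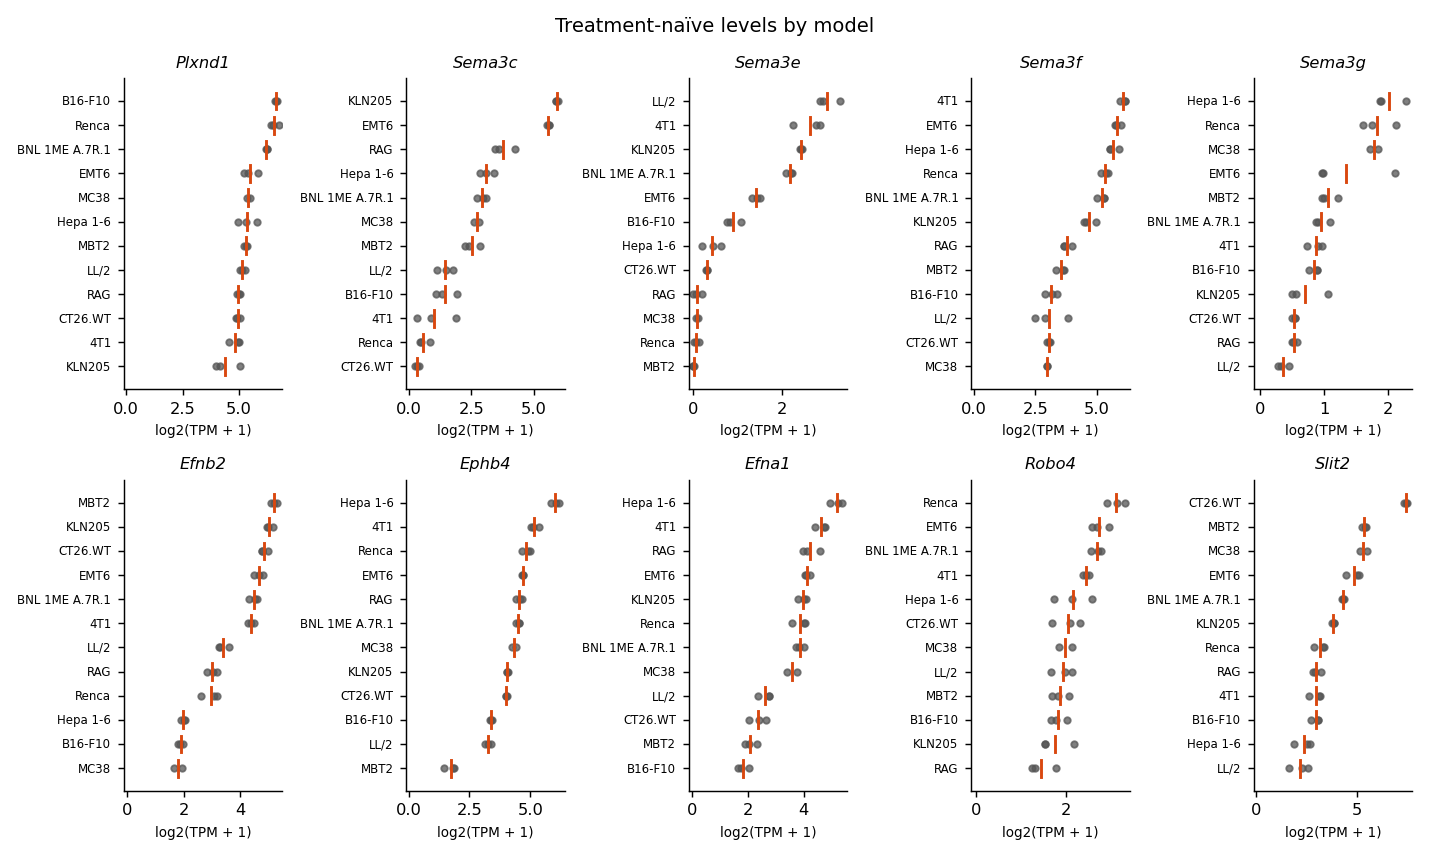
Levels of the 10 genes in treatment-naïve tumors, as log2(TPM + 1) on the horizontal axis of each panel, with the 12 models sorted by mean. Grey points are tumors and orange bars are model means. Slit2 in CT26.WT and Ephb4 in Hepa 1-6 lie apart from the other models, and Ephb4 in MBT2 lies below them.

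Across the 12 treatment-naïve model means, the genes most like Robo4 among 13288 protein-coding genes were Tie1 (Pearson r = 0.958), Plvap (r = 0.955) and Adamts9 (r = 0.947), of which Tie1 is an endothelial receptor and Plvap forms the diaphragms of endothelial fenestrae. For Plxnd1 they were Syde1 (r = 0.919), Mef2c (r = 0.904) and Cpeb3 (r = 0.885). For Ephb4 they were Smarca2 (r = 0.915), Insr (r = 0.875) and Efna1 (r = 0.863), and for Efna1 they were Nuak2 (r = 0.906), Cdh23 (r = 0.900) and Glis3 (r = 0.888). Sema3f was most like Grb10 (r = 0.935), Krt8 (r = 0.900) and Lox (r = 0.898), of which Krt8 is a keratin of simple epithelium. Sema3g was most like Akna (r = 0.916), Cabp1 (r = 0.895) and Adgrd1 (r = 0.894), and Slit2 was most like Qrfp (r = 0.882), Suox (r = 0.873) and Pcdh19 (r = 0.861). Sema3c had Ube2d1 (r = 0.891), Sytl1 (r = 0.835) and Ajuba (r = 0.833). Sema3e had Apc2 (r = 0.863), Bcr (r = 0.852) and Peg3 (r = 0.817), and Efnb2 had Gm10260 (r = 0.853), Cdk14 (r = 0.852) and Eno1b (r = 0.837). Among the 10 genes themselves, Sema3f had r = 0.783 with Efna1, 0.671 with Robo4 and 0.667 with Ephb4. These correlations are descriptions over 12 points, which share the tumor lines, the host strains and the composition of each tumor.

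Lenvatinib treatment was examined by comparing LEN with NT tumors on day 8. Robo4 fell in the mean over the 12 models, as did Sema3f, Sema3g and Efnb2 by smaller amounts, and Sema3e rose, a call that was lost without BNL 1ME A.7R.1. Thus 4 of the 10 genes were lower and 1 was higher at an adjusted p under 0.05 in limma, beside 9.87% of all 17351 genes tested lower and 13.7% higher. The median difference of the 10 genes was -0.095 on the log2(TPM + 1) scale, beside -0.0019 over all genes tested. In bulk tumors, fewer cells of a type and less RNA per cell cannot be told apart. Differences on the log2(TPM + 1) scale understate those of genes near 1 TPM, such as Robo4, Sema3e and Sema3g.

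Robo4 differed by -0.84 (SE 0.048, limma adjusted p = 5.13e-20), with lower LEN means in 12 of 12 models, as for 0.548% of all genes tested. In BNL 1ME A.7R.1, Robo4 was at 8.66, 6.98 and 8.22 TPM in the NT tumors and at 2.35, 2.53 and 2.47 TPM in the LEN tumors. In MBT2, the NT tumors had 4.62, 4.08 and 3.09 TPM of Robo4 and the LEN tumors 1.19, 0.93 and 1.10 TPM. These are the models with the largest differences, -1.37 and -1.24 on the log2(TPM + 1) scale. In B16-F10, Robo4 was at 4.05, 2.19 and 3.64 TPM in NT and at 0.88, 1.36 and 1.17 TPM in LEN tumors. In CT26.WT it was at 2.73, 2.97 and 3.94 TPM in NT and at 1.07, 1.36 and 1.11 TPM in LEN tumors. In Renca it was at 2.99, 3.53 and 4.61 TPM in NT and at 1.49, 1.32 and 1.57 TPM in LEN tumors. In none of these 3 models did a LEN tumor reach an NT tumor. RAG had NT tumors at 2.63, 2.04 and 2.58 TPM and LEN tumors at 0.61, 0.95 and 1.13 TPM of Robo4. KLN205 had NT tumors at 3.42, 3.52 and 4.02 TPM and LEN tumors at 1.92, 2.18 and 1.22 TPM. MC38 had NT tumors at 2.85, 4.38 and 3.31 TPM and LEN tumors at 1.58, 1.26 and 2.20 TPM. The same separation held in these 3 models, and in LL/2 it held at the lowest levels. LL/2 had Robo4 at 1.59, 1.90 and 1.69 TPM in NT and at 0.69, 0.65 and 0.54 TPM in LEN tumors.

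The smallest differences in Robo4 were in Hepa 1-6 (-0.43), EMT6 (-0.54) and 4T1 (-0.58). In Hepa 1-6, Robo4 was at 2.87, 3.63 and 3.61 TPM in NT and at 2.28, 2.70 and 1.78 TPM in LEN tumors. In EMT6 the NT tumors were at 2.59, 2.89 and 5.19 TPM and the LEN tumors at 2.12, 2.02 and 1.96 TPM. In 4T1 the NT tumors were at 4.03, 3.44 and 3.67 TPM and the LEN tumors at 2.01, 2.94 and 1.61 TPM. Thus every LEN tumor was below every NT tumor of its model for Robo4 in 12 of 12 models, which was the case for 7 of 17351 genes, or 0.0403%. Within single models, 10.6% of gene and model pairs had all 3 LEN tumors below all 3 NT tumors. Even so, the size of the Robo4 difference varied between models (limma F test, adjusted p = 0.0287), a call that was lost without BNL 1ME A.7R.1 (adjusted p = 0.218), without Hepa 1-6 (adjusted p = 0.0850) or without MBT2 (adjusted p = 0.0711).

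**Figure D2:**
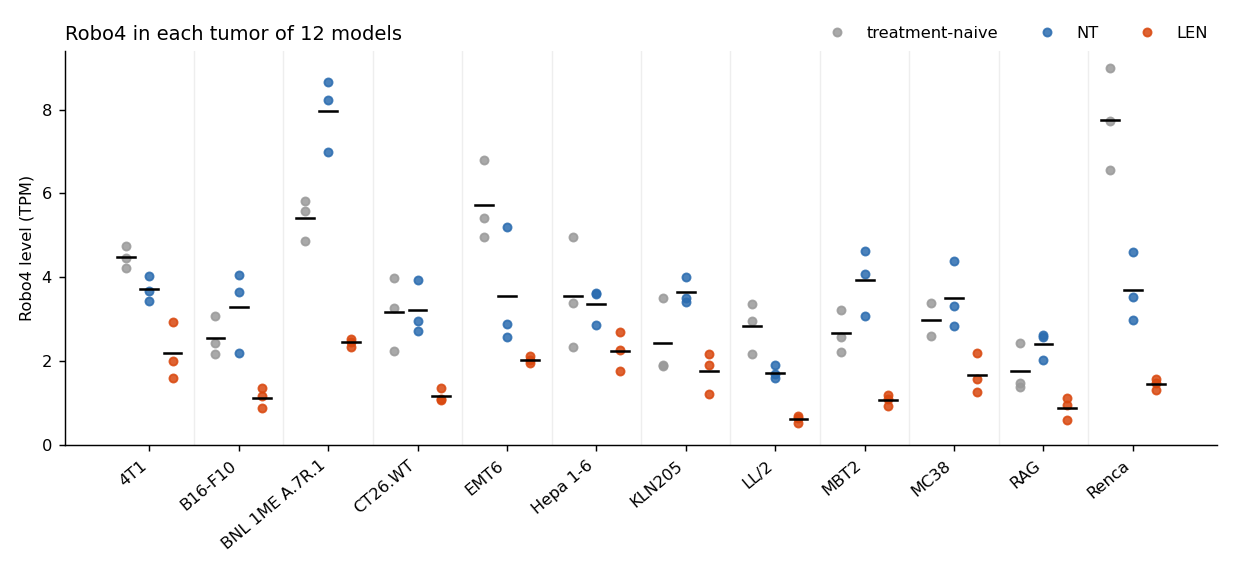
Robo4 level in TPM in each tumor of the 12 models, with black bars at group means. In every model the 3 LEN tumors (orange) lie below the 3 NT tumors (blue), and the treatment-naïve tumors (grey) reach their highest value, 8.98 TPM, in Renca.

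Markers of endothelial cells moved with Robo4. All 8 endothelial markers fell, with a median difference of -0.73. Cdh5, the VE-cadherin of endothelial junctions, went from a median of 15.7 TPM (7.37 to 44.1 TPM) in NT to 5.58 TPM (3.02 to 17.0 TPM) in LEN tumors. Kdr, which encodes VEGFR2, had medians of 4.99 and 2.75 TPM, and Pecam1, which encodes CD31, had medians of 17.3 and 9.91 TPM. The mean log2(TPM + 1) of the 8 markers differed by -0.81 (SE 0.047), lower in 12 of 12 models. Taken relative to that mean in the same tumor, Robo4 differed by -0.035 (95% confidence interval -0.13 to 0.060, limma adjusted p = 0.465), with lower LEN means in 6 of 12 models. The other 9 genes were higher relative to the markers, by 0.55 for Sema3f to 1.16 for Sema3e, but so were 98.5% of all genes tested, while 0.104% were lower. With a pseudocount of 0.1 the relative difference of Robo4 was -0.18 (adjusted p = 0.00744), and with the 6 genes of the microvessel density (MVD) gene score as markers it was -0.19 (adjusted p = 0.000103).

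Slit2 did not pass the test in the mean over models, with a difference of -0.055 (SE 0.062, limma adjusted p = 0.578), lower in 7 of 12 models. The difference for Robo4 minus that for Slit2 was -0.79 (SE 0.080, adjusted p = 3.34e-11 by limma on the difference itself) and was below 0 in 12 of 12 models. In CT26.WT, where Slit2 was most abundant, it was at 170, 161 and 154 TPM in NT and at 180, 186 and 175 TPM in LEN tumors, so that the groups did not overlap although the difference was only 0.16. In Renca, Slit2 was at 2.48, 2.69 and 2.79 TPM in NT and at 1.47, 0.35 and 1.46 TPM in LEN tumors. In Hepa 1-6 it was at 1.87, 1.84 and 2.79 TPM in NT and at 7.00, 3.08 and 3.48 TPM in LEN tumors. Slit2 was thus lower in Renca and higher in Hepa 1-6 with no overlap in either, and its effect varied between models (limma F test, adjusted p = 0.00954). The fibroblast sum of Hepa 1-6 was 1414 to 2426 TPM in NT and 2598 to 3058 TPM in LEN tumors, and that of Renca was 348 to 737 TPM and 182 to 401 TPM. In other models the fibroblast sum and Slit2 went opposite ways. In B16-F10 the sum was 116 to 146 TPM in NT and 448 to 597 TPM in LEN tumors, with a Slit2 difference of -0.20. In BNL 1ME A.7R.1 it was 8077 to 9148 TPM and 6523 to 7459 TPM, with a Slit2 difference of 0.14. Neither of these Slit2 differences was called, and a link with fibroblasts was not tested. The call of the F test was lost without Hepa 1-6 (adjusted p = 0.0716) or without Renca (adjusted p = 0.0847).

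Sema3e rose by 0.35 in the mean over the 12 models (SE 0.043, limma adjusted p = 8.60e-09) and was higher in 8 of 12, with equal group means near 0 TPM in MBT2. Of these 8 models, Hepa 1-6, MC38 and Renca had Sema3e at 0.36 TPM or less in every NT and LEN tumor, with overlapping groups. Sema3e reached the minimum mean of 1 TPM in only 6 of 12 models. The largest difference was in BNL 1ME A.7R.1, where Sema3e was at 0.81, 0.78 and 0.73 TPM in the NT tumors and at 12.3, 13.2 and 14.96 TPM in the LEN tumors. The treatment-naïve tumors of that model lay between them, at 3.23, 3.57 and 3.65 TPM. The difference in BNL 1ME A.7R.1 alone was 3.02 (SE 0.12, limma adjusted p = 1.95e-05). Without that model, the mean difference of Sema3e was 0.10 and was not called (adjusted p = 0.113). The epithelial markers of BNL 1ME A.7R.1 followed the same order of groups, at a median sum of 32.1 TPM in NT, 207 TPM in treatment-naïve and 1201 TPM in LEN tumors, and their part in the Sema3e result was not tested. Its fibroblast markers summed to a median of 8864 TPM in NT and 6537 TPM in LEN tumors.

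Outside that model the differences in Sema3e were smaller. In EMT6, Sema3e was at 2.48, 2.15 and 1.84 TPM in NT and at 3.77, 4.15 and 3.94 TPM in LEN tumors. In B16-F10 it was at 0.84, 1.06 and 0.72 TPM in NT and at 1.99, 1.36 and 1.54 TPM in LEN tumors. In KLN205 it was at 6.30, 6.15 and 5.15 TPM in NT and at 8.11, 6.56 and 6.93 TPM in LEN tumors. All LEN tumors were above all NT tumors in these 3 models as well, so in 4 of 12 models for Sema3e, beside 12.7% of all gene and model pairs. In 4T1 the order was different, since Sema3e was at 6.18, 6.83 and 6.62 TPM in NT and at 7.83, 2.30 and 4.38 TPM in LEN tumors, which overlap. In LL/2, where Sema3e was highest, the NT tumors were at 16.8, 12.4 and 15.9 TPM and the LEN tumors at 17.4, 16.8 and 14.9 TPM. The effect on Sema3e varied between models more than that on any other of the 10 genes (limma F test, adjusted p = 1.73e-17). That ranking did not hold in every alternative. The F of Sema3e went as low as 3.71, with an adjusted p of at most 0.0104, whereas the F of Efnb2 was never below 9.19. This F test called 8 of the 10 genes, beside 35.3% of all genes, with Plxnd1 (adjusted p = 0.0797) and Sema3c (adjusted p = 0.136) not called.

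Plxnd1, the receptor of semaphorin 3E, had a difference of -0.14 (SE 0.052, limma adjusted p = 0.0513), just outside the threshold, with lower LEN means in 9 of 12 models. The difference for Plxnd1 minus that for Sema3e was -0.48 (SE 0.068, limma adjusted p = 1.55e-07) and was below 0 in 9 of 12 models. Without BNL 1ME A.7R.1 it was -0.23 (limma adjusted p = 0.0211). In BNL 1ME A.7R.1, Plxnd1 was at 129, 122 and 128 TPM in NT and at 109, 99.2 and 113 TPM in LEN tumors, a difference of -0.24 that passed in the fit of that model (limma adjusted p = 0.0302). That call was lost in a single fit of all 72 NT and LEN tumors (adjusted p = 0.367), without the mean-variance trend (0.0738) and by the study's own test (0.116), and it passed in 1 of 6 fits that left out a tumor. In KLN205, Plxnd1 was at 20.1, 22.3 and 27.2 TPM in NT and at 16.8, 16.7 and 15.7 TPM in LEN tumors. The groups did not overlap in 4 models, all with LEN below NT, as in 10.6% of all gene and model pairs. In Hepa 1-6 it had its highest difference, 0.33, with NT tumors at 21.7, 21.8 and 29.8 TPM and LEN tumors at 29.6, 33.95 and 28.5 TPM. Plxnd1 passed the threshold when TPM was rescaled over protein-coding genes (-0.15, adjusted p = 0.0213) or by the upper quartile (-0.16, adjusted p = 0.0101). It also passed with a replicate block (-0.225, adjusted p = 0.0116), with a minimum of 5 TPM (adjusted p = 0.0448) and without 4T1, B16-F10, Hepa 1-6, MBT2 or MC38, so in 9 of 19 alternatives. The limma F test for Plxnd1 passed in 5 of 19, among them the rescalings over protein-coding genes (adjusted p = 0.0318) and by the upper quartile (adjusted p = 0.0271).

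The other semaphorins went in different directions. Sema3f fell by 0.26 in the mean (SE 0.062, limma adjusted p = 0.000891), with lower LEN means in 8 of 12 models. In MBT2, Sema3f was at 12.6, 9.55 and 6.77 TPM in NT and at 6.04, 2.81 and 4.38 TPM in LEN tumors. In CT26.WT it was at 5.38, 7.71 and 10.9 TPM in NT and at 4.12, 3.46 and 3.75 TPM in LEN tumors. These were its lowest differences, -0.98 and -0.87, both without overlap. Its LEN means were higher in 4T1, BNL 1ME A.7R.1, KLN205 (0.21) and EMT6 (0.044). In 4T1, Sema3f was at 70.2, 69.5 and 86.6 TPM in NT and at 99.3, 85.2 and 112 TPM in LEN tumors, which overlap. That difference, 0.39, passed neither in the fit of 4T1 alone (limma adjusted p = 0.736) nor in the fit of all models together (0.201). A high level did not go with a rise throughout. Sema3f averaged 50.7 TPM in NT tumors of Hepa 1-6 and 38.3 TPM in those of Renca, with differences of -0.21 and -0.39. In BNL 1ME A.7R.1 it was at 50.1, 55.5 and 49.9 TPM in NT and at 61.3, 61.8 and 63.7 TPM in LEN tumors, a difference of 0.26 (limma adjusted p = 0.0196 in that model). Rescaling over protein-coding genes reduced that to 0.13 (adjusted p = 0.128) and rescaling by the upper quartile to 0.060 (adjusted p = 0.497), both of which ended the call. The effect on Sema3f varied between models (limma F test, adjusted p = 0.00163).

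Sema3g fell by 0.23 (SE 0.046, limma adjusted p = 0.000148), with lower LEN means in 9 of 12 models, of which 6 had no overlap, beside 10.6% of all gene and model pairs. Its mean difference depended on the processing and ran from -0.66 to -0.19 among the alternatives. In KLN205, Sema3g was at 0.67, 0.84 and 1.28 TPM in NT and at 0.20, 0.32 and 0.09 TPM in LEN tumors. In MBT2 it was at 0.84, 0.70 and 0.44 TPM in NT and at 0.28, 0.24 and 0.16 TPM in LEN tumors. In Renca it was at 4.18, 2.48 and 3.39 TPM in NT and at 2.15, 2.04 and 2.17 TPM in LEN tumors. Sema3g was higher in LEN in the models B16-F10, Hepa 1-6 and MC38, of which B16-F10 had no overlap, with NT tumors at 0.92, 0.67 and 0.85 TPM and LEN tumors at 1.57, 0.94 and 1.00 TPM. In B16-F10 the fibroblast sum was 116 to 146 TPM in NT and 448 to 597 TPM in LEN tumors, the leukocyte sum 24.7 to 38.1 TPM and 95.5 to 120.2 TPM, and the venous sum 34.05 to 41.1 TPM and 52.8 to 61.2 TPM. Other lists fell in B16-F10: the endothelial sum was 60.95 to 74.4 TPM in NT and 34.6 to 42.7 TPM in LEN tumors. Its arterial sum was 16.2 to 24.7 TPM and 13.2 to 13.9 TPM, and its pericyte sum 19.1 to 32.8 TPM and 13.3 to 15.9 TPM. The part of these lists in the Sema3g result was not tested. Sema3g was detected at low levels throughout, at 5.87 TPM in its highest tumor. Its effect varied between models (limma F test, adjusted p = 0.0104), a call that was lost without B16-F10 (adjusted p = 0.0548). Sema3c had a mean difference of 0.16 that did not pass (SE 0.063, limma adjusted p = 0.0607). In EMT6, Sema3c was at 63.7, 57.1 and 61.0 TPM in NT and at 82.2, 72.5 and 93.7 TPM in LEN tumors. In RAG it was at 8.96, 10.1 and 12.2 TPM in NT and at 18.0, 15.4 and 15.01 TPM in LEN tumors. These were among 4 models in which the LEN tumors were all above the NT tumors for Sema3c, beside the 12.7% of all gene and model pairs given above, and in no model were they all below.

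Efnb2 fell by 0.11 in the mean over models (SE 0.035, limma adjusted p = 0.0175), with lower LEN means in 7 of 12, but its effect varied between models (limma F test, adjusted p = 9.95e-12). In Renca, Efnb2 was at 3.0, 3.74 and 3.69 TPM in NT and at 1.69, 1.23 and 1.56 TPM in LEN tumors. In B16-F10 it was at 2.80, 2.06 and 3.15 TPM in NT and at 1.5, 1.32 and 1.37 TPM in LEN tumors. In MC38 it was at 2.56, 3.65 and 2.02 TPM in NT and at 1.31, 1.29 and 1.51 TPM in LEN tumors. In these 3 models every LEN tumor was below every NT tumor, with differences of -0.84 in Renca (SE 0.14, limma adjusted p = 0.0102), -0.60 in B16-F10 and -0.64 in MC38. The same separation held in LL/2 (-0.31) and in MBT2 (-0.22), the model with the most Efnb2 before treatment, and thus in 5 models, beside 10.6% of all gene and model pairs, whereas the groups overlapped in Hepa 1-6 (-0.33). In BNL 1ME A.7R.1, Efnb2 was at 13.8, 13.0 and 12.6 TPM in NT and at 27.8, 27.9 and 26.8 TPM in LEN tumors. The difference there was 1.01 (SE 0.068, limma adjusted p = 0.000127), the opposite sign, and the epithelial markers of that model moved with it as they did with Sema3e. For Efnb2 the LEN tumors were also all above the NT tumors in CT26.WT, at 26.8, 29.1 and 31.04 TPM against 23.4, 23.9 and 23.3 TPM, and in 4T1, at 24.6, 24.5 and 29.0 TPM against 21.3, 22.6 and 18.7 TPM. That made 3 models with Efnb2 above NT, beside 12.7% of all pairs. Leaving out Renca changed the mean difference of Efnb2 to -0.041 (adjusted p = 0.495), and the call was also lost without B16-F10 (-0.062), MC38 (-0.059), Hepa 1-6 (-0.087) or LL/2 (-0.089). Leaving out BNL 1ME A.7R.1 instead moved it to -0.21 (SE 0.038, adjusted p = 4.10e-05).

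**Figure D3:**
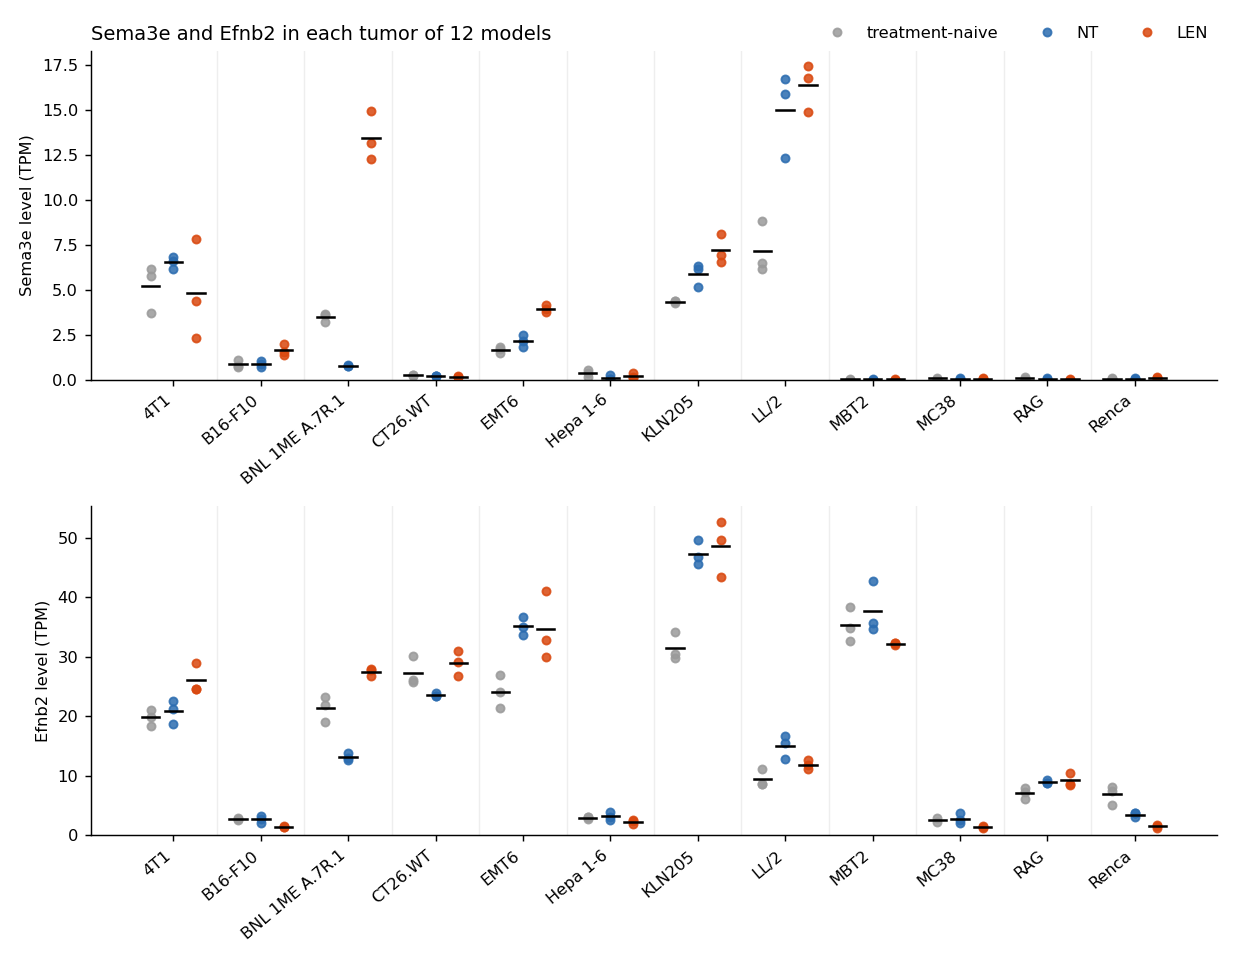
Levels of Sema3e (top) and Efnb2 (bottom) in TPM in each tumor of the 12 models, with black bars at group means. In BNL 1ME A.7R.1 both genes were lowest in the 3 NT tumors (blue) and highest in the 3 LEN tumors (orange), with the treatment-naïve tumors (grey) between.

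Ephb4, the receptor of ephrin-B2, had a mean difference of -0.082 (SE 0.034, limma adjusted p = 0.0741), with lower LEN means in 7 of 12 models. The difference between the changes of Ephb4 and Efnb2 was 0.025 (SE 0.045, limma adjusted p = 0.748), above 0 in 6 and below 0 in 6 models, and it varied between models (F test, adjusted p = 2.12e-09). In MBT2, Ephb4 was at 2.47, 2.08 and 0.98 TPM in NT and at 0.72, 0.90 and 0.63 TPM in LEN tumors, its lowest difference at -0.66 and without overlap. In EMT6, Ephb4 was at 26.7, 33.1 and 27.8 TPM in NT and at 35.5, 38.4 and 33.6 TPM in LEN tumors, its highest difference at 0.29. Rescaling by the upper quartile gave a called mean difference for Ephb4 of -0.10 (adjusted p = 0.00640). Efna1 had a mean difference of 0.036 (SE 0.055, limma adjusted p = 0.704), and its effect varied between models (limma F test, adjusted p = 0.00185). In Renca, Efna1 was at 12.8, 12.7 and 11.2 TPM in NT and at 18.5, 18.8 and 18.0 TPM in LEN tumors, a difference of 0.56 (SE 0.083, limma adjusted p = 0.00701). In MBT2 it was at 3.36, 2.59 and 2.94 TPM in NT and at 2.31, 1.18 and 1.45 TPM in LEN tumors, a difference of -0.60 that did not pass.

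Within each model on its own, 9 of the 103 gene and model pairs that could be tested passed, 5 lower and 4 higher, beside 1.3% of all such pairs lower and 3.56% higher. The lower calls were Robo4 in BNL 1ME A.7R.1 (adjusted p = 0.000319), Renca (0.0112) and B16-F10 (0.0332), Efnb2 in Renca and Plxnd1 in BNL 1ME A.7R.1, all by limma. The Robo4 call in B16-F10 was lost with no minimum on TPM (adjusted p = 0.0630) and by the study's own test (0.202), and it passed in 1 of 6 fits that left out a tumor, whereas the other Robo4 calls passed in 6 of 6. By the study's own test the Renca calls of Robo4 (0.161) and Efnb2 (0.0685) were lost as well. The higher calls were Sema3e, Sema3f and Efnb2 in BNL 1ME A.7R.1 and Efna1 in Renca, of which Sema3f (adjusted p = 0.410) and Efna1 (0.0513) did not pass in the fit of all 72 tumors. Over all genes, 5.21% were lower and 26.3% higher in BNL 1ME A.7R.1, 7.15% and 4.91% in Renca, and 2.42% and 8.57% in B16-F10. The other 9 models gave no call for these genes, and 5 of them gave at most 5 calls over all genes. That fit, in which the tumors share one estimate of the spread, called 19 of 120 pairs lower and 5 higher, beside 2.88% of all gene and model pairs lower and 4.17% higher. In it Robo4 was lower in 10 models, all but EMT6 (adjusted p = 0.0599) and Hepa 1-6 (adjusted p = 0.0890), Efnb2 in 3, Sema3f in 2, and Sema3e, Sema3g, Ephb4 and Slit2 in 1 each. The higher calls were Sema3e in BNL 1ME A.7R.1, EMT6 and B16-F10, Efnb2 in BNL 1ME A.7R.1 and Slit2 in Hepa 1-6. The lower Sema3e call was in 4T1, whose tumors overlapped and whose difference of -0.48 ran from -0.84 to -0.13 with 1 tumor left out.

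**Figure D4:**
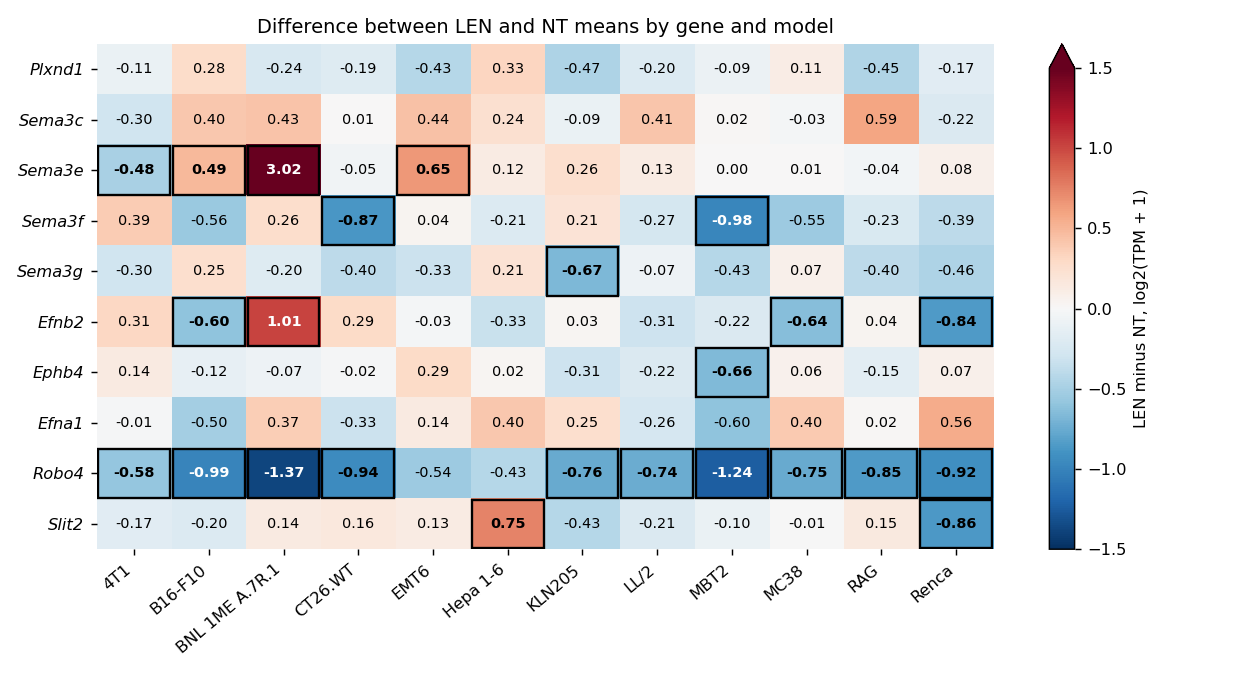
LEN minus NT difference of group means for the 10 genes (rows) in the 12 models (columns), on the log2(TPM + 1) scale, blue for lower and red for higher in LEN. Boxes mark an adjusted p under 0.05 in the limma fit of all 72 tumors: the Robo4 row is blue throughout, from -1.37 to -0.43, whereas the Efnb2 and Sema3e rows hold both colors.

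Among the other genes of these pathways, 2 of 8 tested plexins and neuropilins passed in the mean over models. Nrp1, the co-receptor of several class 3 semaphorins and of VEGF, fell by 0.32 (SE 0.045, limma adjusted p = 1.26e-07), and Nrp2, the co-receptor of semaphorin 3F, rose by 0.14 (SE 0.042, adjusted p = 0.0118). Of 14 other semaphorins tested, 3 were lower and 5 were higher. Sema6d (-0.56, lower in 12 of 12 models), Sema6a (-0.22) and Sema5a (-0.13) were the lower ones, and the highest were Sema4d (0.43), Sema4a (0.25) and Sema3b (0.23). None of 5 other ephrins passed, and of 8 other Eph receptors only Epha3 did, at -0.21. Of 8 other Slit, Robo and netrin pathway genes, Robo1 (-0.33), a receptor of Slit2, and Unc5b (-0.18), a netrin receptor, were lower and Ntn1 (0.15) was higher. The medians of these 5 lists lay between -0.048 and 0.061. Without BNL 1ME A.7R.1 the other semaphorins had 1 higher in place of 5, and the plexins and neuropilins 2 lower and 2 higher.

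Other markers moved in the same comparison. Of the arterial list, 6 of 7 tested genes were lower (median -0.34), and of the venous list 4 of 6 were higher (median 0.14). All 6 pericyte markers were lower (median -0.56), all 8 hypoxia genes with a row were higher (median 0.58), and 4 of 6 epithelial markers were higher (median 0.41). Without BNL 1ME A.7R.1, 2 of 6 epithelial markers were higher (median 0.020), 2 of 6 venous genes were higher, and 4 of 5 tested arterial genes were lower. The fibroblast list had 1 lower and 1 higher of 6, the leukocyte list 1 lower and 3 higher of 7, and the melanocyte list 0 of 5. Their part in the results for the 10 genes was not tested, beyond the comparison of each gene with the endothelial markers.

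Between the treatment-naïve tumors and the NT tumors on day 8, the 10 genes showed a different set of differences. Efna1 rose by 0.18 (SE 0.052, limma adjusted p = 0.00843) and Ephb4 by 0.11 (SE 0.034, limma adjusted p = 0.00970), while Slit2 fell by 0.14 (SE 0.053, limma adjusted p = 0.0413). Thus 2 of 10 genes were higher and 1 was lower, beside 17% of all 17428 genes tested higher and 11.5% lower. In the same comparison 7 of 8 endothelial markers were lower (median -0.22), 7 of 8 hypoxia genes were higher (median 0.37), and 4 of 7 arterial and 3 of 6 venous genes were lower. The fibroblast and epithelial lists each had 3 of 6 lower, the leukocyte list 2 of 7 and the melanocyte list 1 of 5, and no pericyte marker of 6 passed. The part of these lists in the results over time was not tested. Neither rise was called when TPM was rescaled over protein-coding genes, at 0.11 for Efna1 (adjusted p = 0.0875) and 0.052 for Ephb4 (adjusted p = 0.245). The rise of Ephb4 was also not called without BNL 1ME A.7R.1 (0.069), KLN205 (0.072) or 4T1 (0.082), nor that of Efna1 without EMT6 (0.13, adjusted p = 0.102). The fall of Slit2 was not called without Renca (-0.035, adjusted p = 0.689), Hepa 1-6, 4T1, EMT6, LL/2 or MC38. Because this comparison and that of LEN with NT share the NT tumors, their values are given side by side without a test between them. For Robo4 they were -0.0070 over time and -0.84 with LEN, for Sema3e 0.013 and 0.35, for Sema3f 0.031 and -0.26, and for Sema3g -0.042 and -0.23. For Efnb2 they were 0.050 and -0.11, for Ephb4 0.11 and -0.082, for Efna1 0.18 and 0.036, for Plxnd1 -0.022 and -0.14, for Sema3c 0.18 and 0.16, and for Slit2 -0.14 and -0.055. Without BNL 1ME A.7R.1, the differences over time of Sema3e (0.14, adjusted p = 0.00549) and Efnb2 (0.11, adjusted p = 0.0352) were called, and that of Efnb2 was also called without Renca (0.13, adjusted p = 0.00905). Sema3c was called without 4T1 (0.24, adjusted p = 0.00504), RAG, Renca, MC38 or MBT2.

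**Figure D5:**
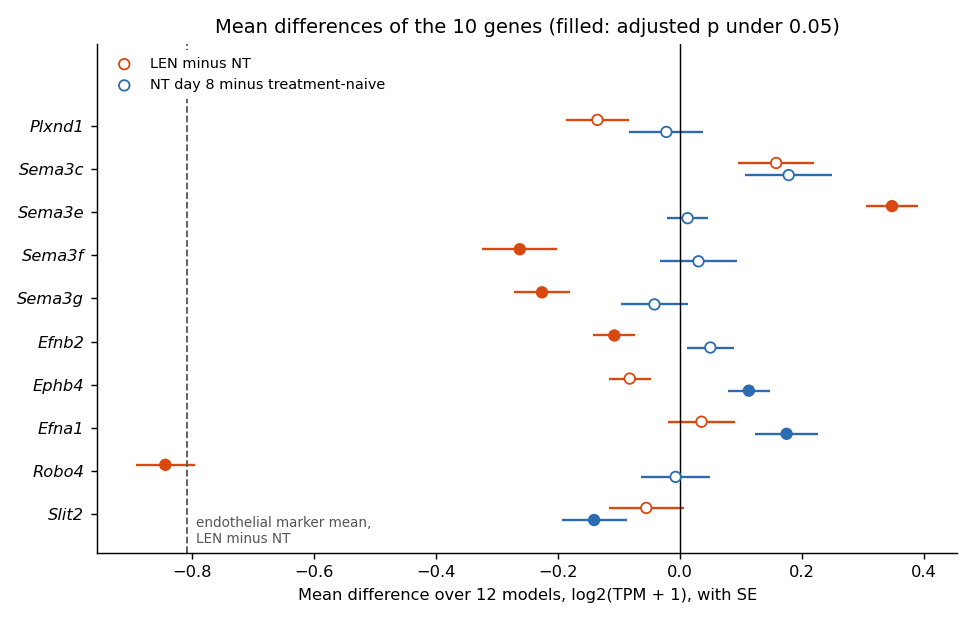
Mean difference over 12 models with its SE for each of the 10 genes on the log2(TPM + 1) scale, for LEN minus NT (orange) and for NT on day 8 minus treatment-naïve (blue), with filled points at an adjusted p under 0.05. Robo4 with LEN, at -0.84, lies at the dashed line that marks the endothelial marker mean, -0.81, while its difference over time is near 0.

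The change over time also varied between models for 9 of the 10 genes by the limma F test, all but Sema3f (adjusted p = 0.165), beside 66.5% of all genes. In the fit of all models, 10 of 120 gene and model pairs were lower and 12 higher on day 8, beside 5.22% and 8.69% of all such pairs. In Renca, Robo4 went from 6.55, 8.98 and 7.72 TPM in treatment-naïve tumors to 2.99, 3.53 and 4.61 TPM in NT tumors, a difference of -0.90 (SE 0.19, limma adjusted p = 0.00104 in the fit of all models). In the same model Slit2 went from 9.10, 9.06 and 6.27 TPM to 2.48, 2.69 and 2.79 TPM, a difference of -1.31 (adjusted p = 1.22e-06 by limma), and Efnb2 from 5.13, 8.05 and 7.5 TPM to 3.0, 3.74 and 3.69 TPM, a difference of -0.80. Neither group of tumors overlapped the other for these 3 genes, but the share of all genes so separated over time was not computed. The endothelial marker sum of Renca was 168 to 212 TPM in treatment-naïve and 85.3 to 106 TPM in NT tumors, and its hypoxia genes summed to 319 to 364 TPM and 816 to 1055 TPM. Its fibroblast sum was 1563 to 2416 TPM in treatment-naïve and 348 to 737 TPM in NT tumors, and its pericyte sum was 87.8 to 105 TPM and 53.8 to 69.2 TPM.

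Sema3e in BNL 1ME A.7R.1 went from 3.23, 3.57 and 3.65 TPM to 0.81, 0.78 and 0.73 TPM over time, a difference of -1.34 (SE 0.12, limma adjusted p = 1.00e-12). Efnb2 fell there by 0.65 (limma adjusted p = 0.000130), while Plxnd1 (0.78), Sema3c (0.79), Slit2 (0.77) and Ephb4 (0.60) were higher. In BNL 1ME A.7R.1 the epithelial sum was lower in NT than in treatment-naïve tumors, as given above, while the fibroblast sum was 4383 to 4652 TPM in treatment-naïve and 8077 to 9148 TPM in NT tumors, the pericyte sum 108 to 117 TPM and 212 to 220.2 TPM, and the arterial sum 101 to 106 TPM and 151 to 159 TPM. In LL/2, Sema3e went from 6.16, 8.84 and 6.5 TPM to 16.8, 12.4 and 15.9 TPM, a difference of 0.97 (limma adjusted p = 1.52e-08), and Efnb2 from 8.65, 11.2 and 8.60 TPM to 15.5, 16.7 and 12.9 TPM, a difference of 0.61. The epithelial sum of LL/2 was 37.4 to 57.7 TPM in treatment-naïve and 172 to 218 TPM in NT tumors. EMT6 had lower Robo4 (-0.60) and Sema3g (-0.73) and higher Efna1 (0.71) and Efnb2 (0.53) on day 8, each called in the same fit. The endothelial sum of EMT6 was 150.3 to 243.8 TPM in treatment-naïve and 80.3 to 143 TPM in NT tumors, and its hypoxia sum was 469 to 583 TPM and 816 to 1301 TPM.

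The genes lie on different chromosomes of build GRCm38. Sema3c (chr5:17574281-17730268), Sema3e (chr5:14025276-14256689), Slit2 (chr5:47983138-48307733) and Ephb4 (chr5:137350109-137378669) are on chromosome 5, all on the plus strand. Robo4 (chr9:37401897-37415115, plus strand) and Sema3f (chr9:107681500-107710475, minus strand) are on chromosome 9. Plxnd1 is at chr6:115954811-115995005 on the minus strand, Efnb2 at chr8:8617434-8661242 on the minus strand, Efna1 at chr3:89271733-89281142 on the minus strand and Sema3g at chr14:31217860-31230352 on the plus strand. All are protein-coding genes in GENCODE M21, with up to 36 exons in a transcript of Plxnd1 or Slit2 and up to 5 in those of Efnb2 and Efna1.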

How the data were processed

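Tumor RNA from 35 treatment-naïve, 36 NT and 36 LEN tumors was depleted of ribosomal RNA and sequenced on either of a pair of Illumina instruments, and which tumor ran on which is not given in the sources used here. Per the study's methods and processing notes, the authors used FastQC 0.11.5 for quality control and Trimmomatic 0.36 for trimming, and then STAR 2.5.2b and RSEM 1.2.31 with the mm10 genome and Ensembl 88 genes for alignment and quantification. The deposited values are TPM per gene, scaled to one total in each tumor, so sequencing depth is unknown and no counting interval is given. Replicates are the tumors that the labels number within a model and group.

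Values were analyzed as log2(TPM + 1) for genes with a mean of at least 1 TPM, with limma 3.58.1 (lmFit, eBayes with trend) in R 4.3.3, two-sided, adjusted by Benjamini-Hochberg over all genes tested, at a threshold of 0.05. One mean per model and group was fitted, and the contrast averaged LEN minus NT, or NT minus treatment-naïve, over the 12 models. F tests asked whether a contrast differed between models or levels differed between treatment-naïve models. Each model was also fitted alone, with 3 tumors per group. Endothelial-relative values subtract the mean log2(TPM + 1) of 8 markers in the same tumor. The script was tested on simulated data. Alternatives covered the pseudocount (0.1), the minimum (none or 5 TPM), 2 rescalings, the trend, a replicate block, the study's own test of 2 groups, and leaving out each tumor or model. The study's own test is its Welch t test, applied here to every gene and adjusted over all genes of a model. Leaving out models for the F tests of LEN, the differences between genes and the endothelial-relative values, and BNL 1ME A.7R.1 for the gene lists, was chosen after seeing the data, and models were not left out of the treatment-naïve F tests.

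The 10 genes and the gene lists were chosen with earlier results of these data known. All 10 are named. From the other pathway lists, those past the threshold with the 3 largest falls and 3 largest rises per list are named, and of the cell type lists Cdh5, Kdr and Pecam1. The genes most like each were the 3 with the highest Pearson r over 12 model means. Listed genes without a row numbered 2. Exon numbers and positions are from GENCODE M21 on GRCm38, and promoter windows from RefSeq on GRCm38.p6.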

Additional observations from a re-analysis of the deposited data

Results flagged for a closer look

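Effects that differed between models are gathered here, with the adjusted p of the limma F test over 12 models. No group had 4 or more tumors, so no single tumor was tested as standing apart. For LEN against NT, the test passed for Sema3e (1.73e-17), Efnb2 (9.95e-12), Ephb4 (0.00126), Sema3f (0.00163), Efna1 (0.00185), Slit2 (0.00954), Sema3g (0.0104) and Robo4 (0.0287), beside 35.3% of all genes. Robo4 was lower in all 12 models, so for it the size varied and not the sign. Sema3e and Efnb2 had their highest differences in BNL 1ME A.7R.1. The receptor and ligand differences also varied between models, for Plxnd1 minus Sema3e (2.67e-11) and for Ephb4 minus Efnb2 (2.12e-09).

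Relative to the endothelial markers, the LEN effect varied for Sema3e (7.86e-14), Efnb2 (1.84e-09), Sema3f (0.000139), Plxnd1 (0.000416), Efna1 (0.00176), Ephb4 (0.00997), Sema3g (0.0217) and Slit2 (0.0411). The share of all genes passing that relative F test was not computed, so the list is not shown to be particular to these genes. For Robo4 the same test gave an adjusted p of 0.520. For NT on day 8 against treatment-naïve tumors, the F test passed for Sema3e (3.15e-12), Efnb2 (1.47e-08), Slit2 (7.33e-07), Ephb4 (9.63e-06), Robo4 (7.03e-05), Plxnd1 (0.000227), Sema3g (0.0176), Efna1 (0.0212) and Sema3c (0.0320), beside 66.5% of all genes.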

How the results depend on the processing

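The LEN differences of Robo4, Sema3f and Sema3g kept their direction and call in every alternative that gave a value, Robo4 between -0.86 and -0.82 with any tumor left out, as did Robo4 minus Slit2 and Plxnd1 minus Sema3e, the latter at -0.23 without BNL 1ME A.7R.1. Ephb4 minus Efnb2, never called, reversed without B16-F10 (-0.016), EMT6 (-0.0015), Hepa 1-6 (-0.0044), MC38 (-0.036) or Renca (-0.056). The treatment-naïve F tests kept their calls with each alternative run, among which no model was left out. Depth is unknown, and with 3 tumors a group a single model can miss differences of the size seen in the mean. The cause of the changes below was not tested.

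For LEN against NT, Efna1 reversed without Renca (-0.012) and with a pseudocount of 0.1 (-0.0091), and Slit2 without Renca (0.018); none of these was called. The number of the 10 genes called higher, 1, became 0 with a minimum of 5 TPM, where Sema3e was not tested, and without BNL 1ME A.7R.1, and 2 without 4T1, KLN205, MC38 or Renca; leaving out single tumors gave 1 to 2. Over all genes, 2371 higher became 1440 without BNL 1ME A.7R.1, and 1712 lower became 2813 with protein-coding and 3171 with upper-quartile rescaling. Effects differing between models, 8 of 10, became 5 with a minimum of 5 TPM or without Hepa 1-6, and 6122 genes became 3443 without BNL 1ME A.7R.1.

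Within single models, 5 lower calls of the 10 genes became 19 in the fit of all 72 tumors, 3 with a minimum of 5 TPM, 9 with protein-coding and 8 with upper-quartile rescaling, and 1 by the study's own test, which gave 2 higher calls in place of 4. Over all genes, 2468 lower calls became 6001, 4105 (protein-coding), 4016 (upper quartile) and 366 (study's test), the last with 1921 higher in place of 6778.

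Relative to the endothelial markers, 18 genes lower became 34 with the MVD genes, and Robo4 was the 1 gene of the 10 called lower with those and with a pseudocount of 0.1, in place of 0. Genes higher, 17083, became 11045 at 5 TPM and 37405 with no minimum.

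For NT against treatment-naïve, Sema3e and Efnb2 became called without BNL 1ME A.7R.1 (0.14 and 0.11), as did Efnb2 without Renca (0.13) and Sema3c without 4T1 (0.24), MBT2 (0.19), MC38 (0.20), RAG (0.22) or Renca (0.20) and at 5 TPM (0.18), and uncalled values crossed 0. Plxnd1 was 0.0034, 0.016, 0.038 and 0.031 without B16-F10, EMT6, Hepa 1-6 and LL/2. Robo4 was 0.012, 0.047, 0.036 and 0.074 without 4T1, EMT6, LL/2 and Renca and 0.00073 with a pseudocount of 0.1. Sema3e was -0.013, -0.0081, -0.019 and -0.075 without 4T1, EMT6, KLN205 and LL/2, -0.14 with a pseudocount of 0.1, and -0.047 with either rescaling. Efnb2 was -0.0012 without LL/2, -0.015 (protein-coding) and -0.0043 (upper quartile). Sema3f was -0.014 without BNL 1ME A.7R.1, -0.033 and -0.022 under those rescalings, and Sema3g 0.021 without EMT6. With single tumors left out, Plxnd1 ran from -0.039 to 0.0052, Robo4 from -0.027 to 0.011 and Sema3e from -0.0030 to 0.025. Genes called higher among the 10, 2, became 1 without EMT6 or KLN205 or with a pseudocount of 0.1, 4 without Renca, and 0 under either rescaling. The 1 called lower became 0 without 4T1, EMT6, Hepa 1-6, LL/2, MC38 or Renca and with no minimum, and 0 to 1 with single tumors left out. Over all genes, 2971 higher became 1950 without EMT6, 1765 without KLN205, and 1201 and 1421 under protein-coding and upper-quartile rescaling, and 2002 lower became 951 at 5 TPM and 3833 and 3509 under those rescalings.

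Median differences of all genes in the LEN comparison were over 0.1 in size in BNL 1ME A.7R.1 (0.17), Hepa 1-6 (0.13), 4T1 (-0.17) and LL/2 (-0.11), and upper-quartile rescaling brought them to 0, 0.0070, -0.12 and -0.0033.

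Replicate numbers did not pair the tumors: of 20 same-numbered NT and LEN pairs, 0 had a correlation of deviations over 0.1 (-0.076 to 0.076), and 8 correlated best with their own number. With a replicate block, genes higher with LEN were 1281, effects differing between models 3 of the 10 genes and 1860 genes, lower calls within models 2 for the 10 genes and 960 for all genes, and NT against treatment-naïve gave 1084 genes higher, 837 lower and 0 of the 10 genes lower.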
